A study of Mus musculus with 40 samples.

Results

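The 10 libraries of the trap control group were chosen by treatment, and split by a measured value, the share of their counts that fell on 4 structural RNA entries: Rn7s1 and Rn7s2, which are copies of the 7SL RNA gene, and mt-Rnr1 and mt-Rnr2, the mitochondrial ribosomal RNAs. The first set, C0459 to C0464, is the 6 libraries above 25% and the second set, C0465 to C0468, is the 4 libraries below it, out of 40 libraries in the series. The nearest library above the threshold was C0460 at 29.7%, and the nearest below was C0465 at 17.4%. Since the split was made on measured values of these libraries, every difference between the sets is given as a description, without a test. Tests were run only in the other treatment groups.

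All libraries were made from EMT-6 tumors, a mouse mammary carcinoma line grown in the mammary pad of female Balb/C mice that were 8 to 12 weeks old at inoculation. The mice of all 10 trap control libraries received 492 µg of a fusion of a mutated anti-PD-L1 antibody and a TGFβ trap. It was given intravenously on days 0, 1 and 2, starting 20 days after inoculation, and the tumors were collected on day 6. The 2 groups compared with each other by test had the same strain, tumor, route and days. They received 400 µg of an inactive isotype control of anti-PD-L1 or 400 µg of anti-PD-L1, 10 libraries each. The fourth group, also of 10 libraries, received 492 µg of a bifunctional fusion of anti-PD-L1 and the TGFβ trap intravenously. Its libraries entered the gene model of that comparison and had their own correlation tests. Whole snap-frozen tumors were used, so the line, the host stroma and the infiltrating cells are measured together, and fewer cells of a type and less RNA per cell cannot be told apart. The labels do not say in which preparation run each tumor was handled.

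Total RNA was depleted of ribosomal RNA and primed with random primers, a method that keeps RNAs without a poly(A) tail. Such RNAs include 7SL, the scaffold of the signal recognition particle, which brings ribosomes making secreted proteins to the endoplasmic reticulum. They also include the small nuclear RNAs U1, U2, U4, U5 and U6, the core of the spliceosome. Small nucleolar RNAs (snoRNAs) guide the modification and cleavage of ribosomal RNA, scaRNAs do the same for small nuclear RNAs in Cajal bodies, and RNase P and RNase MRP are RNA enzymes that process precursors of transfer RNA and ribosomal RNA. Mitochondrial RNAs are copied from both strands of the mitochondrial genome as long precursors. Long noncoding RNAs such as Malat1 and Neat1 stay in the nucleus.

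Reference sequences are shown for the structural RNAs on which the comparison turns, from GENCODE M21 on mm10. The entries Rn7s1 and Rn7s2 are identical over 300 nt, so their reads cannot be assigned to one or the other. U2 (Rnu2-10, chr11:101658238-101658428, plus strand) and the U3 snoRNA genes Rnu3a (chr10:40258467-40258680, plus strand) and Rnu3b2 (chr11:87471368-87471582, plus strand) are shown as the small RNAs with large differences between the sets. Capitals mark GTAGTA, which in U2 holds the letters that pair with the intron branch point, and TGATGA, the letters of box C in U3.
Rnu2-10: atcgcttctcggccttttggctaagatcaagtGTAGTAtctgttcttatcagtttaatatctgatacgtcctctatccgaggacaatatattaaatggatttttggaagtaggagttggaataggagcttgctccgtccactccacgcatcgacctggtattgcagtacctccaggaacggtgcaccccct
Rnu3a: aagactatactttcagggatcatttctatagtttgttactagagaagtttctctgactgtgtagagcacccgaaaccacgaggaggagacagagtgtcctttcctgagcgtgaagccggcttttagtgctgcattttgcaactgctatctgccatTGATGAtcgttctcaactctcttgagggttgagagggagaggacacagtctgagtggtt
Rnu3b2: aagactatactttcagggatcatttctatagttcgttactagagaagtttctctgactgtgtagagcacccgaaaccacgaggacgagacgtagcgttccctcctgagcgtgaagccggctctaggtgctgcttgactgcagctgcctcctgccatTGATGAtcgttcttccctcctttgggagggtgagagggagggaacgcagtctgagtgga
Among 62 snRNA and snoRNA genes of 180 to 220 nt, GTAGTA was found in 19 on the sense strand and in 21 on either strand, and TGATGA in 14 and 16, or 30.6 and 22.6% on the sense strand. These matches describe the letters only. Rnu3a and Rnu3b2 shared 85.4% of aligned positions, Rnu3b4 has the same sequence as Rnu3b2, and 3 further U2 entries have the same sequence as Rnu2-10. RNase MRP RNA (Rmrp, chr4:43492788-43493058, minus strand) is shown as an RNA whose level overlapped between the sets.
Rmrp: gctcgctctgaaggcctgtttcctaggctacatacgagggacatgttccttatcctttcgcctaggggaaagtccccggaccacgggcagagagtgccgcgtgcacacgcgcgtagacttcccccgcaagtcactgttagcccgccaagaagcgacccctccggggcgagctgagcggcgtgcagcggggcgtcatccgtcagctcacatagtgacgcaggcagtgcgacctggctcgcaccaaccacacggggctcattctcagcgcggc

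The 4 entries that defined the split took 62.3, 29.7, 42.03, 32.6, 48.4 and 44.6% of counts in C0459 to C0464, and 17.4, 16.1, 12.9 and 13.9% in C0465 to C0468. The 7SL pair alone took between 12.9 and 19.7% in the first set and between 6.10 and 6.76% in the second, and mitochondrial ribosomal RNA took between 16.8 and 43.3% against between 6.78 and 11.3%. These ranges follow from the rule. What the rule did not fix is the mix: within the first set the 7SL share varied less between libraries than the mitochondrial ribosomal share, which spread widely and was highest in C0459. The count ratio of mt-Rnr2, the large subunit RNA, to mt-Rnr1, the small subunit RNA, was 4.15, 5.12, 4.23, 4.19, 4.48 and 4.11 in the first set and 5.46, 8.50, 9.04 and 8.14 in the second. The sets did not overlap in this ratio, so mt-Rnr1 differed more than mt-Rnr2, and C0465 was the second-set library closest to the first.

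**Figure D1:**
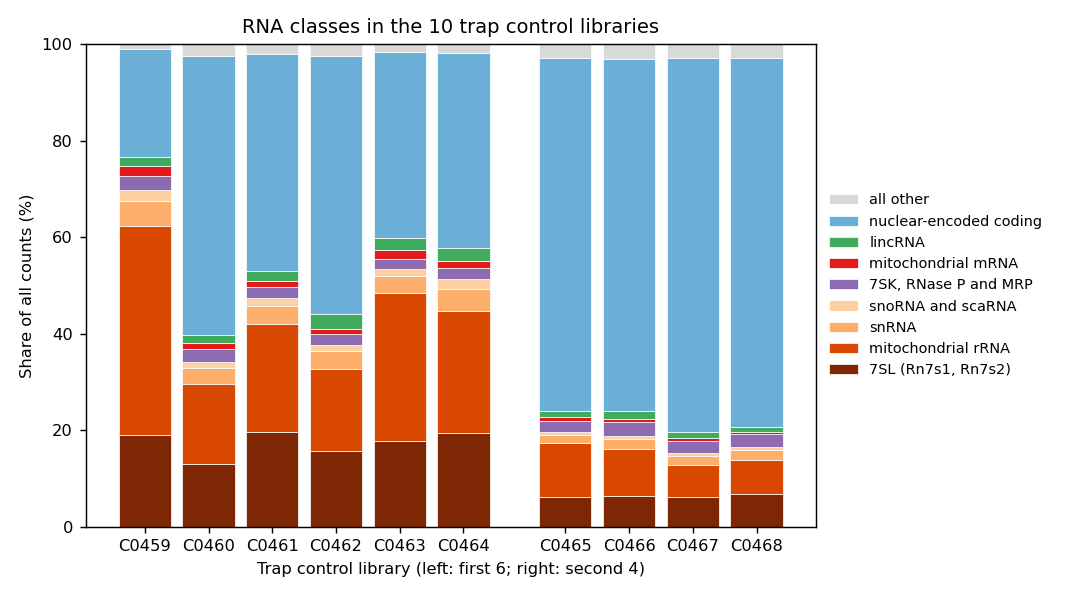
Share of all counts (vertical axis, percent) taken by 9 RNA classes in each of the 10 trap control libraries (horizontal axis); each bar is 1 library and sums to 100. The 7SL and mitochondrial ribosomal segments define the split; the segment for 7SK, RNase P and RNase MRP lies between 1.88 and 2.95% in all 10 libraries.

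The remaining abundant RNA polymerase III transcripts, with RNase MRP RNA among them, were not part of the rule. As a share of all counts, 7SK, RNase P and RNase MRP together took 2.90, 2.62, 2.40, 2.36, 1.88 and 2.21% in the first set. In the second set they took 2.39, 2.95, 2.48 and 2.59%. These ranges overlapped, on a base that includes the 4 structural entries. Of counts outside those entries, the RNA polymerase III list took 2.89 to 6.22% against 2.53 to 3.13%, which overlapped too. Ribozyme (RNA enzyme) entries took 2.12 to 4.92% against 1.48 to 1.87%, higher without overlap, and 3 of 5 tested were higher. In TPM the ribozyme share was 0.730-fold in the first set relative to the second, lower without overlap. Rn7sk, the RNA that holds the elongation factor P-TEFb inactive, stood at 22794, 8714, 9694, 8900, 9186 and 8917 CPM (normalised read counts, scaled to library size by the trimmed mean of M values, TMM) in the first set and at 8141, 10734, 7461 and 8235 CPM in the second. Its log2 difference was 0.40 ± 0.305 (SE), with C0459 alone far above the other libraries. On the log2(TPM + 1) scale its difference was -1.23, below the median of all genes, so the direction depends on the unit. Rmrp was at 14699, 5224, 5427, 4812, 5566 and 7206 CPM against 4603, 6123, 4704 and 4508 CPM, which overlapped, with a log2 difference of 0.52 ± 0.319 (SE) on counts and -1.21 on log2(TPM + 1). Rpph1, the RNA of RNase P, was higher without overlap, at 5465 CPM or more in the first set and at 3690 CPM or less in the second.

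Every library of the first set had shorter fragments than every library of the second. The ratio of a gene's expected count to its TPM is proportional to its effective length, so the mean fragment length used in quantification can be recovered from single-transcript genes. It was 164.9, 172.5, 164.0, 166.6, 165.3 and 154.4 nt in C0459 to C0464 and 186.9, 192.1, 191.2 and 192.1 nt in C0465 to C0468, or 164.6 ± 5.88 nt (SD, n = 6) against 190.57 ± 2.52 nt (SD, n = 4). Within the first set the shortest value was that of C0464, not that of C0459, which had the largest structural share. From 8 genes of the mitochondrial genome alone, with mt-Rnr1 and mt-Rnr2 of the rule among them, the difference was -26.04 nt. It was -25.97 nt from the single-transcript genes outside the 4 structural entries. Both fits read the same quantification of each library, so they are not independent. The split did not use fragment length directly, but both come from the same libraries. The part of fragment length in the class differences was not tested. In libraries outside the split, isotype control stood at 165.89 ± 7.94 nt (SD, n = 10) and anti-PD-L1 at 188.76 ± 3.75 nt (SD, n = 10). All 10 isotype control libraries were below the lowest anti-PD-L1 library (two-sided permutation test of the means, p = 2e-05).

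**Figure D2:**
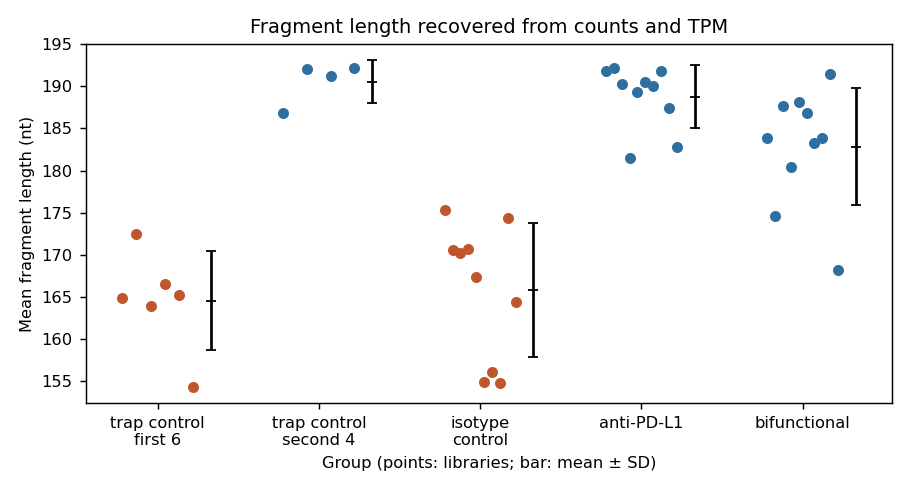
Mean fragment length in nt (vertical axis) recovered for each library (points) by group (horizontal axis), with mean ± SD as bars; the axis does not start at 0. The first 6 trap control libraries lie between 154.4 and 172.5 nt, near the isotype control libraries, and the second 4 lie between 186.9 and 192.1 nt, near anti-PD-L1.

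Fragment length enters every TPM value of a short RNA. The effective length of Rn7s1 was between 131 and 148 nt in the first set and between 114 and 118 nt in the second, and that of the 141-nt snRNA entry Gm24407 was between 7.45 and 10.3 nt against between 4.86 and 5.62 nt. The same class had different sizes in the 2 units: the snRNA share was 3.37-fold higher in the first set in counts and 1.19-fold in TPM, and the snoRNA share 4.72-fold and 1.201-fold. For the 13 mitochondrial mRNAs these values were 4.23-fold and 2.16-fold, and for the listed nuclear long noncoding RNAs 3.29-fold and 2.66-fold. The part of effective length in these gaps was not tested. In TPM the snRNA entries already took 61.1% of the total outside the structural entries in the first set and 51.4% in the second, which limits how large a fold of that share can be. The 22 mitochondrial transfer RNA entries, of 75 nt or less, had no count in any library, and the shortest RNA with a count was 85 nt long.

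Total counts ran from 13495835 to 25108601 in the first set and from 21987948 to 26389345 in the second. Counts outside the 4 structural entries were fewer in every first-set library than in every second-set library. The part of this depth in values near 0 CPM was not tested. After filtering on low counts, 14456 genes were compared. Of these, 2767 were higher in all 6 first-set libraries than in all 4 second-set libraries (19.1%) and 2445 were lower without overlap (16.9%). A log2 difference of 1 or more was reached by 12.3% of genes and one of -1 or less by 4.32%. These shares are the background for the class counts below. The median log2 difference of all genes was -0.01 with TMM scaling. It moved to -0.76 when counts were scaled by library totals and to -0.65 on log2(TPM + 1), so class values are to be read against that median. On these scales the share of higher genes among those without overlap was 53.1% (TMM), 5.51% (totals) and 0.797% (TPM). A gene that passed the filter only through the set where it is high had to differ, so the class counts describe the genes tested and not all annotated members.

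Small nuclear RNAs were higher in the first set. Their share of counts outside the 4 structural entries was 13.7, 4.70, 6.29, 5.51, 6.65 and 8.44% in the first set and 2.01, 2.41, 2.13 and 2.41% in the second. Of 34 snRNA entries tested, out of 1382 listed, 27 were higher without overlap and 1 was lower, with a median log2 difference of 2.03. Many entries are identical copies, and the 34 held only 20 distinct count profiles. U2 (Rnu2-10) was at 9289, 1853, 2835, 2656, 3493 and 4046 CPM in the first set and at 825, 1228, 889.9 and 1010 CPM in the second, a log2 difference of 2.03 ± 0.414 (SE). U1 (Rnu1a1) differed by 2.06 ± 0.395 (SE). C0459 was the highest library for both, and C0460 was the first-set library nearest to the second set. The RNAs of the minor spliceosome, which removes a small class of introns, were scarcer: U12 (Rnu12) was at 1.83 to 5.25 CPM against 1.24 to 1.70 CPM, and U11 (Rnu11) overlapped. The entry that was lower was Gm22973, a 191-nt snRNA gene copy, at 0.986 to 1.71 CPM against 1.98 to 4.06 CPM; it was named after its values were seen.

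U3, the snoRNA that directs cleavage of the ribosomal RNA precursor, was among the most different small RNAs. Rnu3a was at 4836, 953, 1677, 1036, 2271 and 2442 CPM in the first set and at 148, 231, 210.0 and 192 CPM in the second, a log2 difference of 3.497 ± 0.466 (SE). The lowest first-set library was above the highest second-set library. Rnu3b2, whose counts are shared with its identical copy Rnu3b4, was at 13150, 1890, 3815, 2105, 5016 and 5793 CPM against 324 to 564 CPM in the second set, a log2 difference of 3.55 ± 0.556 (SE). Of 97 snoRNA entries tested, out of 1484 listed, 81 were higher without overlap and 0 lower, and the median log2 difference was 1.79. The values ran from 0.64 for Gm24044 to 4.36 for Snora81. The snoRNA share was 5.68, 1.66, 2.68, 1.82, 3.02 and 3.52% of counts outside the structural entries in the first set and 0.609, 0.715, 0.638 and 0.634% in the second. On log2(TPM + 1) the snoRNA median was -0.21, which is above the median of all genes on that scale. The genes whose introns hold snoRNAs differed much less: of 11 listed host genes, 3 were higher without overlap and 0 lower, with a median of 0.40 on counts. On log2(TPM + 1) the host median was below the all-gene median, at -0.94. On log2(TPM + 0.1) it was -1.086 against -1.092 for all genes. Among the hosts, Gas5 overlapped and Snhg17 was higher by 1.204 ± 0.274 (SE). scaRNAs were higher in 12 of 14 entries without overlap, with a median of 1.73, and Scarna13 was at 92.3 to 313 CPM against 46.7 to 64.4 CPM.

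By length, small RNAs of 100 to 159 nt had a median log2 difference of 1.76 in 94 entries, those of 160 to 199 nt 2.03 in 37, those of 200 to 249 nt 2.11 in 11, and those of 250 to under 450 nt 1.48 in 24. The difference was thus not largest in the shortest RNAs.

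All 13 mitochondrial mRNAs were higher in the first set without overlap, with a median log2 difference of 3.13. Their share of counts outside the structural entries was 5.71, 1.68, 2.20, 1.504, 3.87 and 2.74% against 0.836, 0.761, 0.574 and 0.616%. The size depended on the gene. Subunits of cytochrome c oxidase differed least, with mt-Co1 at 2.09 ± 0.444 and mt-Co3 at 2.09 ± 0.458 (SE), although mt-Co1 alone ran from 3923 to 19110 CPM in the first set. Subunits of NADH dehydrogenase differed most, with mt-Nd4 at 3.64 ± 0.505 and mt-Nd5 at 3.48 ± 0.502 (SE). mt-Nd4 was at 1745, 403, 491, 322, 1203 and 639 CPM in the first set and at 83.1, 58.5, 53.9 and 60.5 CPM in the second. mt-Nd6, the only protein-coding gene on the other strand, was at 33.2 to 216 CPM against 6.39 to 10.5 CPM, a log2 difference of 3.51 ± 0.517 (SE). The mt-Nd4l value of 3.75 is uncertain because its counts equal those of the nuclear copy Gm10222. On log2(TPM + 1) mitochondrial mRNAs remained far above the all-gene median of -0.65, with a median of 1.47. The snRNA and snoRNA medians were also above it but nearer, at 0.02 and -0.21.

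Nuclear genes of the same respiratory complexes went the other way. Of 24 listed, 14 were lower without overlap and 1 was higher, with a median of -0.48. Cox7c, a small subunit of cytochrome c oxidase, was at 13.2, 12.6, 6.78, 9.77, 9.14 and 10.2 CPM against 25.02, 27.4, 22.1 and 21.7 CPM. Uqcrb, of the cytochrome bc1 complex, differed by -1.01 ± 0.0945 (SE). The exception was Uqcrq, of the same complex, which was higher by 1.54 ± 0.285 (SE). Of 18 mitochondrial ribosomal protein genes, 13 were lower and 0 higher, with a median of -0.56. For comparison, all coding genes with a longest transcript under 1 kb had a median of -0.46, with 202 of 518 lower without overlap (39.0%). The part of transcript length in the values of these lists was not tested.

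Of 15 listed nuclear-retained long noncoding RNAs, 13 were tested, 8 were higher in the first set without overlap and 0 lower, with a median of 1.12. Malat1 was at 11218, 4884, 7248, 10865, 5634 and 9275 CPM in the first set and at 2651, 2346, 1669 and 2299 CPM in the second, a log2 difference of 1.87 ± 0.281 (SE). Neat1, the scaffold of paraspeckles, was at 2189, 894, 1321, 2692, 1209 and 2018 CPM against 341, 284, 175 and 229 CPM, a difference of 2.74 ± 0.338 (SE). For both RNAs C0462 was among the highest, while it was among the lowest first-set libraries in structural share. Xist, which coats the inactive X chromosome, was at 152 to 383 CPM against 48.5 to 106 CPM. Firre differed by 2.43, Airn by 1.61, Pvt1 by 1.40, Jpx by 1.12 and Ftx by 0.82, all without overlap.

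The other 5 tested RNAs of the list overlapped. The median level of the list in each library, on the log2 scale relative to all genes, overlapped too, at -2.22 to -0.01 in the first set and -1.48 to -0.39 in the second. Tug1 was at 58.3, 61.7, 67.3, 69.2, 59.5 and 58.9 CPM against 61.6, 58.1, 53.9 and 63.4 CPM, a difference of 0.08 ± 0.083 (SE). The imprinted Meg3, Rian and Mirg transcripts, which come from 1 locus, overlapped, with differences of -0.01, -0.95 and -0.38.

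**Figure D3:**
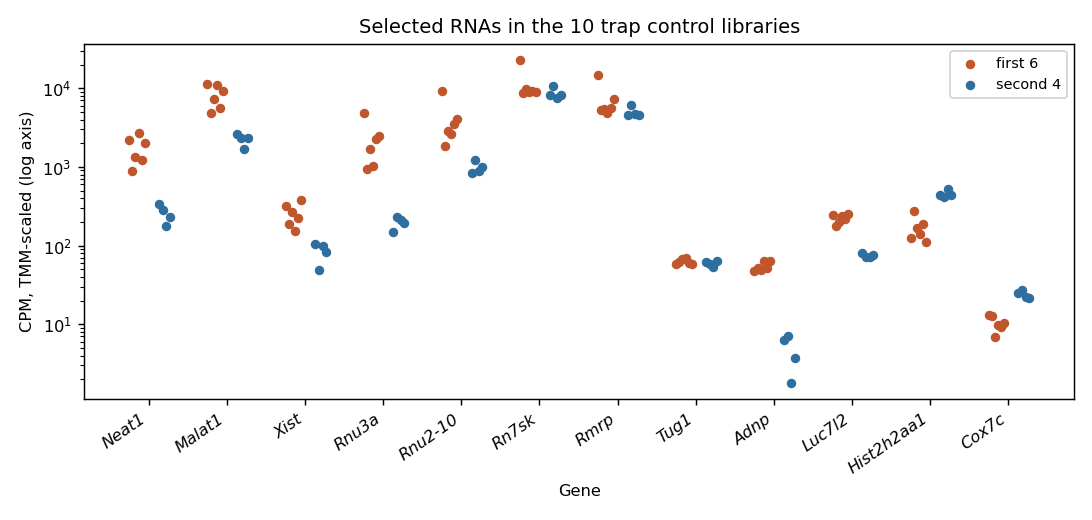
CPM scaled by TMM (log vertical axis) of 12 RNAs (horizontal axis) in the first 6 (orange) and second 4 (blue) trap control libraries; each point is 1 library. Neat1, Malat1, Xist, Rnu3a, Rnu2-10, Adnp and Luc7l2 are higher in the first set without overlap, Hist2h2aa1 and Cox7c are lower, and Rn7sk, Rmrp and Tug1 overlap.

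Other long noncoding classes were also higher in counts. Of 268 lincRNAs (long RNAs from between genes) tested, out of 1654 listed, 153 were higher without overlap and 2 lower, with a median of 1.19. The 2 lower were Gm26619 and Gm26825. Of 303 antisense genes, 164 were higher and 1 was lower, with a median of 1.27. The lower antisense gene was Gm20628, at 57.0 to 124 CPM against 224 to 291 CPM. Of 14 sense-intronic RNAs, which lie inside introns of other genes, 12 were higher and 0 lower, with a median of 1.95. Cep112it was at 261, 153, 159, 136, 185 and 147 CPM against 39.8, 61.3, 50.3 and 61.4 CPM. Whether counting used the strand is not given in the sources used here, so reads of an antisense or intronic gene and of its host cannot be told apart. In TPM the sets overlapped for each of these classes: the lincRNA share was 1.36-fold, the antisense share 0.896-fold and the sense-intronic share 1.23-fold in the first set relative to the second.

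Genes known to keep introns in the nucleus were listed as a further class. Of 25, 14 were higher without overlap and 1 was lower, with a median of 0.54. On log2(TPM + 1) the median was -0.63, which is only 0.019 above that of all genes. On log2(TPM + 0.1) it was -0.70 against -1.09 for all genes, so in TPM the gap depends on the pseudocount. Luc7l2, of the U1 particle, was at 243, 176, 201, 237, 215 and 253 CPM against 80.8, 71.2, 72.4 and 76.4 CPM. Every first-set library was well above the second set, with a difference of 1.55 ± 0.117 (SE). The cyclin Ccnl1 differed by 1.42 ± 0.178 (SE). The kinases of splicing factors Clk1, Clk2 and Clk4 differed by 1.32, 1.06 and 0.80. Splicing factors themselves were mixed: Srsf11 was higher by 0.39, Srsf2, Srsf5 and Srsf6 overlapped, and Srsf3 was lower by 0.40, at 137 to 188 CPM against 199 to 236 CPM.

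Outside the mitochondrion, Adnp, Coro6 and Shank1 had the largest positive differences among protein-coding genes of at least 10 CPM that did not overlap. Adnp, a chromatin-associated zinc finger protein, was at 47.0, 52.1, 49.3, 62.9, 52.5 and 63.5 CPM against 6.26, 7.09, 1.81 and 3.67 CPM, a difference of 3.54 ± 0.326 (SE). Shank1, a scaffold of synapses, was at 5.81 to 12.2 CPM against 0.374 to 1.32 CPM. Coro6, a coronin of the actin cytoskeleton, was at 11.9 to 51.4 CPM against 1.30 to 2.55 CPM. Unlike the small RNAs, Adnp was not highest in C0459.

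Histone genes of the clusters, whose mRNAs end in a stem-loop in place of a poly(A) tail, were lower in the first set. Of 54 tested, out of 59 listed, 28 were lower without overlap and 0 higher, with a median of -0.72. Hist2h2aa1 was at 124, 279, 168, 139.5, 185 and 112 CPM against 443, 411, 526.1 and 441 CPM, a difference of -1.44 ± 0.222 (SE). Hist1h2ai and Hist3h2a differed by -1.40 and -1.23. The histone stem-loop consensus was found on the sense strand in transcripts of 29 of the 59 clustered histone genes and of 32 of 21226 protein-coding genes. Medians were -0.76 in the 27 tested genes with a match and -0.68 in the 27 without. Variant histones, with ordinary polyadenylated mRNAs, had a median of -0.16 over 10 genes, 2 lower and 1 higher. H2afz, the H2A.Z variant, was lower by 0.55 and H3f3b, an H3.3 gene, by 0.32. RNAs without a poly(A) tail were thus found among the higher classes and among the lower.

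Cytosolic ribosomal protein genes were lower as well. Their share of counts outside the structural entries was 2.15, 2.83, 2.37, 2.85, 2.10 and 2.31% in the first set and 4.03, 4.996, 3.79 and 3.90% in the second. Of 82 tested, 45 were lower without overlap and 1 was higher, with a median of -0.56. The median of all coding genes with a longest transcript under 1 kb was -0.46, and the part of length was not tested here either. Values ran from -1.92 for Rps7 to 0.95 for Rpl10a, and pseudogene copies can share reads with these genes. The proteins that assemble on 7SL did not follow their RNA. Of 6 listed, 4 were lower without overlap and 1 was higher. Srp14, which binds the Alu domain of 7SL, was at 19.3 to 29.8 CPM against 33.9 to 40.4 CPM, and Srp54a, the GTPase of the particle, differed by -1.38 ± 0.170 (SE).

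Among protein-coding genes the log2 difference rose with transcript length, from negative to positive. The median log2 difference was -0.46 for genes with a longest transcript under 1 kb, -0.31 for 1 to 2 kb, -0.12 for 2 to 4 kb, 0.09 for 4 to 8 kb and 0.37 for 8 kb and over. Under 1 kb, 202 of 518 genes were lower without overlap and 28 higher. At 8 kb and over, 30 of 744 were lower and 295 higher. The order was the same on log2(TPM + 1), from -1.45 to -0.40. By intron content, the median was 0.01 for genes without introns, -0.21 for those with under 5 kb of intron, and 0.16 at 80 kb and over, where 492 of 2013 genes were higher and 128 lower. By GC content, the 5 bins from under 42% to 54% and over had medians of 0.05, -0.09, -0.15, -0.14 and 0.04. In isotype control minus anti-PD-L1 the same bins had medians of 0.25, 0.02, -0.13, -0.23 and -0.11, so the last bin changed sign, and under 42% GC 607 of 1201 genes rose and 186 fell by edgeR. Genes with an annotated retained-intron transcript had a median of -0.05, and those without one -0.09. Long genes also have more intron, and the parts of the 2 features were not separated.

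**Figure D4:**
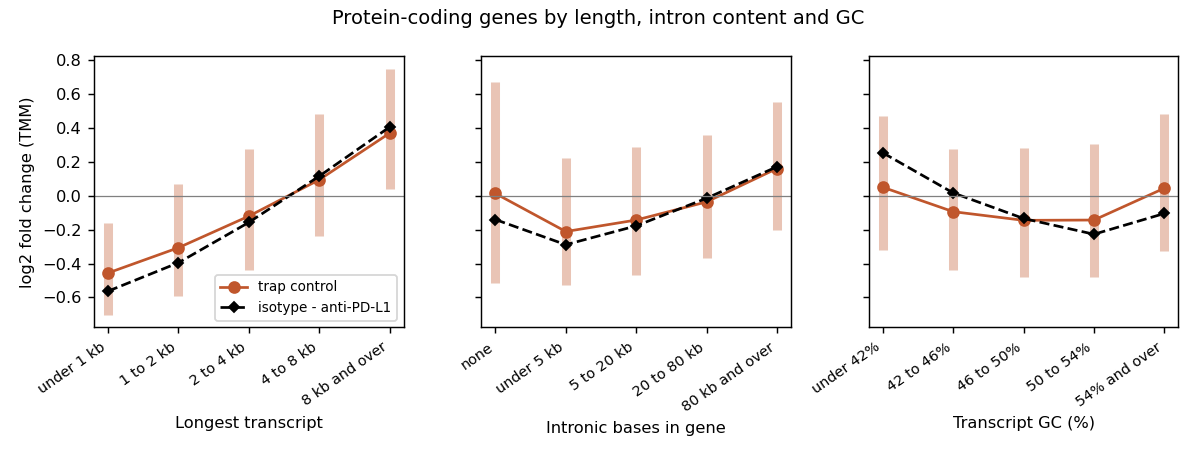
Median log2 difference (vertical axis, TMM scaling) of protein-coding genes by longest transcript, intronic bases and transcript GC content (horizontal axes). Orange points are the trap control sets, first minus second, with the quartile range of genes as bars, and black diamonds are isotype control minus anti-PD-L1; these run from -0.46 and -0.56 under 1 kb to 0.37 and 0.40 at 8 kb and over.

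More genes had shorter than longer expressed transcripts in the first set, although most overlapped. The length of the transcripts expressed from a gene, as apportioned by the quantification, was recovered from its count per TPM after allowing for fragment length. This measure was added after the other values had been seen. Over 3889 protein-coding genes with several transcripts, it was shorter without overlap in 1073 (27.6%) and longer in 144 (3.7%), with a median log2 ratio of -0.03. In Luc7l2 it was 2642 ± 59.3 nt (SD, n = 6) against 3059 ± 58.9 nt (SD, n = 4), while its count was higher. In Actb, cytoplasmic actin, it was 1568 ± 29.8 nt against 1695 ± 30.01 nt. Gapdh, a glycolytic enzyme gene, went the other way, at 618 ± 13.2 nt against 589 ± 3.07 nt, and Ccnl1 overlapped. In the libraries outside the split, Luc7l2 was at 2518 ± 57.8 nt in isotype control and 3085 ± 77.3 nt in anti-PD-L1 (SD, n = 10 each), but Actb was at 1703 ± 54.3 nt and 1715 ± 28.5 nt, and the median log2 ratio of all genes was -0.01. In genes with an annotated retained-intron transcript 853 of 2886 were shorter (29.6%), and in genes without one 220 of 1003 (21.9%).

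Processed pseudogenes, which are reverse-transcribed copies of mRNAs, split in both directions. Of 267, 67 were higher (25.1%) and 54 lower (20.2%), against 19.1 and 16.9% of all genes. The median of 0.13 changed sign when genes under a mean of 1 CPM were left out (-0.15 less the median of all genes). Their summed share of counts outside the structural entries was lower without overlap, at 1.06 to 1.56% against 1.73 to 2.13%. In TPM their share was 0.375-fold, also lower without overlap. Copies of ribosomal protein genes were among the lowest. Rps16-ps2 was at 0 CPM in 5 first-set libraries and 2.37 CPM in C0463, against 29.95, 56.7, 49.3 and 56.6 CPM. Others were higher: Gm16300 differed by 2.31 ± 0.148, Gm13722 by 2.21 ± 0.158 and Gm6480 by 2.07 ± 0.140 (SE). The unprocessed pseudogene Gm17131 was at 910.4, 885, 1099, 1056, 1148 and 1159 CPM against 231, 133, 164 and 156 CPM. C0459 did not stand apart in these genes. Pseudogenes share reads with their parent genes, so these values are uncertain.

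Among coding genes the largest negative differences included Dpt, Svep1 and Serpina3n. Dpt, dermatopontin of the matrix, was at 0.452 to 3.67 CPM against 6.53 to 22.8 CPM, and Svep1, a matrix protein, at 3.39 to 13.7 CPM against 22.9 to 118 CPM. Serpina3n, a secreted protease inhibitor, was at 0.570 to 2.94 CPM against 8.75 to 36.8 CPM. C0467 was the highest library for these genes. Its adipocyte marker sum was 0.0780% of counts outside the structural entries, against at most 0.0129% in the other 9 libraries, and its part in these values was not tested. In the keratinocyte, adipocyte, T cell, neutrophil, erythroid and endothelial marker lists, no gene was higher or lower without overlap. Of 9 fibroblast markers 1 was lower (Thy1), with a median of -0.73 and overlapping summed shares. The 6 carcinoma markers had a median of -0.85 and none was above 0, although Krt19 alone was lower without overlap. Their summed share was 0.0169 to 0.0531% of counts outside the structural entries in the first set and 0.0594 to 0.0781% in the second, which did not overlap. The macrophage list had a median of -0.52, with 1 of 10 higher and 0 lower without overlap. In isotype control against anti-PD-L1, 8 of 10 macrophage, 6 of 8 adipocyte and 3 of 6 carcinoma markers fell by edgeR and 0 rose in each list. These shifts move with the RNA class differences, and their part in them was not tested. Krt8, a keratin on the carcinoma list, was present in every library, at 131 to 335 CPM against 308 to 450.9 CPM. Muscle markers were high in C0463 alone of the first set, at 1.04% of counts outside the structural entries against 0.000812% or less in the other 5, and reached 0.0465% in the second set. None of the 5 muscle genes tested separated the sets.

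The immediate early genes, which are induced within minutes of a stimulus, were higher in 4 of 13 without overlap and lower in 0, with a median of 0.74. Jun was at 261, 88.5, 108, 123, 105 and 180.4 CPM against 53.5, 72.1, 47.4 and 60.9 CPM. Of 9 hypoxia genes, 0 were higher and 0 lower without overlap, although 6 of the 9 rose in isotype control against anti-PD-L1 in the test described next.

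To see whether these classes also differ where the split played no role, isotype control was compared with anti-PD-L1. All 10 isotype control libraries lay above the 25% threshold and all 10 anti-PD-L1 libraries below it. In this comparison treatment and library set cannot be told apart. By edgeR's quasi-likelihood test with Benjamini-Hochberg adjustment, 4872 of 14909 genes were higher (32.7%) and 4874 lower (32.7%) in isotype control. The labels number each tumor sample but do not state separate animals, so p-values measure only the spread between these samples.

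The classes listed next moved in the direction seen between the trap control sets. All 13 mitochondrial mRNAs rose, with a median of 3.29. Of 35 snRNA entries 33 rose and 0 fell, of 97 snoRNAs 91 rose and 0 fell (median 1.54), and of 14 sense-intronic RNAs all 14 rose (2.54). Of 287 lincRNAs 228 rose and 9 fell (1.42), and of 314 antisense genes 252 rose and 5 fell (1.42). Of 55 clustered histones 51 fell and 2 rose (-1.02), of 82 ribosomal protein genes 59 fell and 4 rose (-0.45), and of 24 nuclear respiratory genes 19 fell and 2 rose (-0.67). Of 25 detained-intron genes 21 rose and 2 fell (0.57). Length bins ran from -0.56 under 1 kb to 0.40 at 8 kb and over.

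Single genes show the size of these shifts. Neat1 was at 2139 ± 653 CPM in isotype control and 293 ± 83.0 CPM in anti-PD-L1 (SD, n = 10 each), a log2 difference of 2.87 ± 0.204 (SE, edgeR adjusted p = 3.77e-13), and all 10 isotype control libraries were above the highest anti-PD-L1 library. Rnu3a rose by 3.36 ± 0.256 (SE, edgeR adjusted p = 1.62e-12), Adnp by 3.20 ± 0.234 (edgeR adjusted p = 6.94e-13) and Luc7l2 by 1.865 ± 0.0871 (edgeR adjusted p = 8.2e-17). Hist2h2aa1 fell by 1.65 ± 0.106 (edgeR adjusted p = 4.09e-14) in all 10 isotype control libraries. Rn7sk differed by 0.32 ± 0.116 (edgeR adjusted p = 0.0156) with 4 of 10 libraries above the anti-PD-L1 range. Tug1, which overlapped between the trap control sets, rose by 0.38 ± 0.0576 (edgeR adjusted p = 1.05e-06).

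Fcgbp, the lowest coding gene of the first set by log2 difference, did not pass in isotype control against anti-PD-L1 (log2 difference -1.38 ± 0.942, edgeR adjusted p = 0.199). Dpt fell by 2.66 ± 0.587 (edgeR adjusted p = 0.000209), with 7 of 10 isotype control libraries below the anti-PD-L1 range.

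At the level of genes, 2732 that were higher without overlap in the first trap control set were tested in both comparisons. Of these, 2588 were called higher in isotype control and 1 was called lower, which is 94.7% of the former and 54.4% of the 4755 genes called higher. Of 2445 lower without overlap, 2248 were called lower and 0 higher, or 91.9%, and 47.0% of the 4788 called lower. Across 14365 genes the log2 differences of the comparisons had a Spearman rho of 0.886. The comparisons share no library, but genes are not independent replicates.

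**Figure D5:**
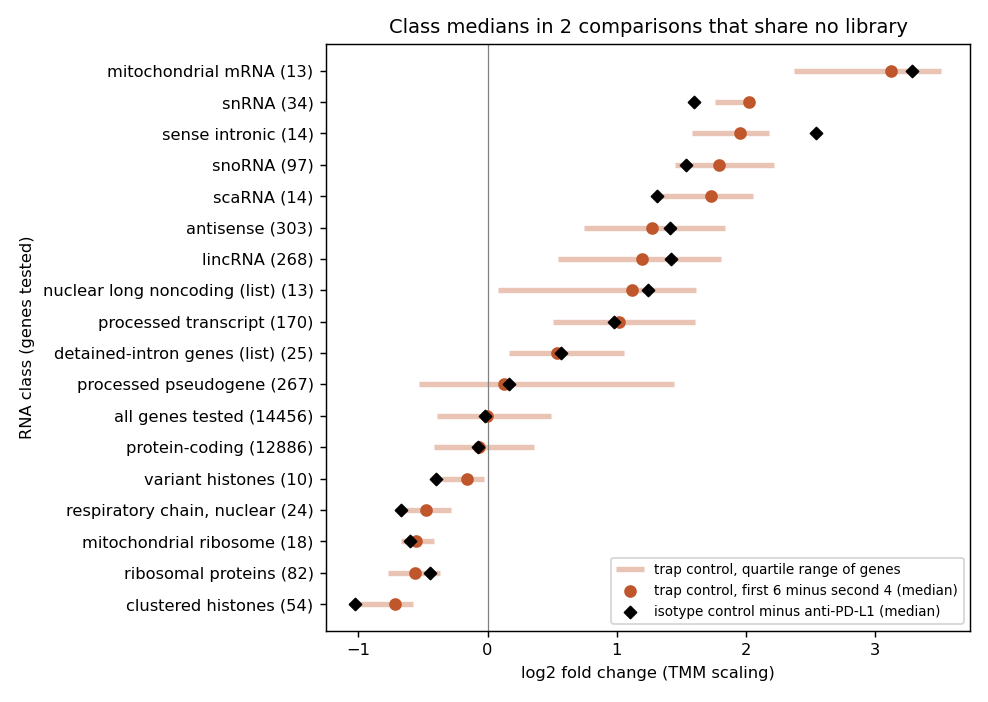
Median log2 difference (horizontal axis, TMM scaling) of 18 gene classes (vertical axis, with the number of genes tested in trap control); circles are the trap control sets, first minus second, with quartile ranges of genes, and diamonds are isotype control minus anti-PD-L1. Mitochondrial mRNA is farthest to the right, at 3.13 and 3.29, and clustered histones are among the lowest, at -0.72 and -1.02.

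Within isotype control, where all 10 libraries had high structural shares, 23 relations of that share with class shares and fragment length were computed. The mitochondrial mRNA share of other counts followed the structural share (Pearson r = 0.93, permutation p = 0.00011, adjusted p = 0.00253; Spearman rho = 0.927, permutation p = 0.00027, adjusted p = 0.00621). It held without the 2 libraries farthest from the median (r = 0.89). Both measures contain mitochondrial RNA. No other class passed in counts. The values were r = 0.788 (permutation p = 0.00624, adjusted p = 0.0534) for lincRNA, r = 0.741 (permutation p = 0.021, adjusted p = 0.105) for snoRNA and r = -0.254 (permutation p = 0.482, adjusted p = 0.652) for snRNA. Fragment length, which separated the sets of libraries, did not pass within isotype control (r = 0.554, permutation p = 0.0956, adjusted p = 0.244; rho = 0.697, permutation p = 0.0305, adjusted p = 0.146). Its sign there was positive, opposite to the difference between the sets, and r was 0.841 without the 2 libraries farthest from the median. With shares computed from TPM, 22 relations were tested, and the calls differed. The snoRNA share passed by both measures (r = 0.917, permutation p = 9e-05, adjusted p = 0.00198; rho = 0.915, permutation p = 0.0005, adjusted p = 0.011), with r = 0.865 without the 2 farthest libraries. By Spearman's rho alone, lincRNA passed (rho = 0.855, permutation p = 0.00269, adjusted p = 0.0197; r = 0.723, permutation p = 0.0186, adjusted p = 0.136), and so did mitochondrial mRNA (rho = 0.83, permutation p = 0.00479, adjusted p = 0.0263; r = 0.633, permutation p = 0.0509, adjusted p = 0.28). The snRNA share passed by rho with the opposite sign to the difference between the sets (rho = -0.891, permutation p = 0.00118, adjusted p = 0.013; r = -0.747, permutation p = 0.0121, adjusted p = 0.133). Shares of 1 total move against each other. In anti-PD-L1 and in bifunctional libraries, 0 of 23 relations passed by Pearson's r, and by Spearman's rho 1 passed in anti-PD-L1 and 0 in bifunctional libraries.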

How the data were processed

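Total RNA of 40 tumors was sequenced after ribosomal depletion and random priming, per the labels' protocols. The deposited expected counts and TPM (length-scaled abundance) per gene were made by the authors with RSEM 1.2.31 and Bowtie2 2.3.1 on mm10, per the submitters' processing notes. Annotation release, trimming and strand setting are not given in the sources used here. Of 39012 gene IDs, 37607 (96.4%) matched GENCODE M21, which gave biotype, length, GC content and introns. Expected counts were rounded for the count models, filtered with edgeR's filterByExpr and scaled by TMM, and tested with edgeR 4.0.16 (quasi-likelihood, Benjamini-Hochberg, threshold 0.05) in R 4.3.3. The model for isotype control against anti-PD-L1 was filtered, scaled and fitted with the bifunctional libraries included. With only the 20 libraries compared, 4714 genes were called higher and 5135 lower in isotype control. DESeq2 1.42.0 and limma 3.58.1 served as alternatives. Code was tested on simulated data.

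The members, lists and tests were chosen with earlier results of these data known. Named genes are all members of the nuclear long noncoding, RNA polymerase III and structural lists, the 8 coding genes and the 5 genes of each noncoding class or clustered histones with the largest differences in each direction (10 CPM or more, no overlap), and 3 of each other list. Other list members were named after their values were seen. The trimmed fragment length fit, its version from 8 mitochondrial genes and the expressed transcript length were added after seeing the data. Libraries of a set differed by more than sampling noise (smallest chi-square per degree of freedom 22.5). Correlation tests used 100000 permutations. Some items are not reported here.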

Additional observations from a re-analysis of the deposited data

Results flagged for a closer look

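A screen of 72 sets of library values looked for 1 library far from its neighbours, and chance gives about 1 in 20. The values flagged lie in the trap control sets and isotype control only. They are not a full list for the other groups: in anti-PD-L1, muscle markers were at 0.0338% in C0475, next 0.000965%. All values are shares of counts outside the 4 structural entries. In the first trap control set C0459 stood apart for scaRNA (0.200%, next 0.141%), ribozyme RNA (4.92%, next 2.65%) and misc_RNA (2.76%, next 1.52%). C0463 stood apart for muscle markers (1.04%, next 0.000812%) and C0464 for T cell markers (0.00149%, next 0.000821%). In the second set C0466 had the lowest protein-coding share (87.4%, next 89.2%) and C0467 the highest adipocyte share (0.0780%, next 0.0129%). In isotype control C0458 had the highest snoRNA share (6.69%, next 3.74%) and C0449 the highest muscle share (0.0171%, next 0.00113%).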

How the results depend on the processing

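Of 303 alternative values, 263 kept their direction and size, 37 moved and 3 reversed. Class medians here are given less the median of all genes, and the cause of each change was not tested. Leaving out genes under a mean of 1 CPM reversed processed pseudogenes to -0.15 (0.13 before), and dropping the filter reversed GC under 42% to -0.015 and GC of 54% and over to -0.082. Without a filter snRNA was at 1.48, lincRNA at 0.97, processed pseudogenes at 0.89, detained-intron genes at 0.38 and genes of 8 kb and over at 0.19. Scaling by total counts left 380 genes higher and 6516 lower, and both TPM scales 67 and 8340. On log2(TPM + 1) snRNA was at 0.67, snoRNA at 0.45, lincRNA at 0.64, clustered histones at -1.46, ribosomal proteins at -1.25, mitochondrial mRNA at 2.12, detained-intron genes at 0.019, GC of 54% and over at 0.0029, genes under 1 kb at -0.80 and genes of 8 kb and over at 0.26. On log2(TPM + 0.1) snRNA was at 1.11, snoRNA at 0.88, lincRNA at 1.02, ribosomal proteins at -0.86, detained-intron genes at 0.39 and genes under 1 kb at -0.68. Leaving out each trap control library in turn gave lincRNA 1.17 to 1.34 and processed pseudogenes 0.017 to 0.33. For isotype control against anti-PD-L1, limma on log2(TPM + 1) called 636 genes higher and 11234 lower, and on log2(TPM + 0.1) 676 and 11797. The class relations called by Pearson's r were 1 in isotype control, 0 in anti-PD-L1 and 0 in bifunctional libraries. No paired analysis was possible because the labels give each sample its own number and no number is shared between groups. Of 1382 snRNA entries 139 had any count in trap control and 34 passed the filter, and of 1484 snoRNA entries 175 and 97. On log2(TPM + 1) genes with TPM near 0 are held near 0 by the pseudocount, so lincRNA values on that scale do not show a higher level.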
